A study of Arabidopsis thaliana with 12 samples.

Results

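The binding of SOB3, an AT-hook nuclear protein that restrains hypocotyl growth, was read at 10 GH3 genes (GRETCHEN HAGEN 3) of Arabidopsis thaliana. These were GH3.1, GH3.2, GH3.3, GH3.4, GH3.5, GH3.6, GH3.9, GH3.10, JAR1 (also GH3.11) and GH3.17, out of 27444 protein-coding nuclear genes in the annotation used. They were chosen by name, as members of the clades that conjugate auxin or jasmonate, with earlier results of these data known. Every peak that touched the gene body, the 2 kb upstream or the 1 kb downstream was taken. All plants carried ProSOB3::SOB3-GFP in the sob3-4 background (Col-0), so the fusion was driven by the SOB3 promoter in whole seedlings, and binding was an average over all tissues. Seedlings grew in short days (8 h light and 16 h dark) at 22 °C. They were harvested at ZT4 (4 h after lights on, 5 days old), ZT9 (1 h after lights off, 5 days old) or ZT24 (the end of the dark period, 6 days old). For ZT24 the sample titles say ZT24 and the harvest label says ZT0, and the age differs from that of the other groups. Chromatin was precipitated with an anti-GFP antibody in 3 replicates per time point, giving 9 peak lists, beside 1 input sample per time point. No plants without GFP were analysed here.

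GH3 enzymes are acyl-acid amido synthetases, which join a plant hormone to an amino acid. Conjugation of the auxin indole-3-acetic acid lowers the pool of free hormone, and several of these genes are themselves induced by auxin within a short time, so that they act as a brake on the signal. JAR1 does the opposite for jasmonate: it makes jasmonoyl-isoleucine, the form that the jasmonate receptor recognises. In seedlings, free auxin drives hypocotyl elongation.

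The sequences under 5 of the GH3 sites are shown because the results turn on them. These are the strongest site of the family (GH3.17) and 4 of the 5 sites whose fold rank changed between time points. Each run is the strand of the GH3 gene in TAIR10 coordinates, 60 bases either side of the median summit, with bases in exons of the gene left out. Capitals mark words of 4 motifs that were searched on both strands: a TCP-like motif (spelled GGACCA, spelled GGCCCA or spelled GGTCCA), a PIF-like motif (spelled CACACG, spelled CACATG, spelled CACGCG or spelled CACGTG), an AT-rich motif (spelled AAATAAAA, spelled AAATAATA, spelled ATATAAAA or spelled ATATAATA) and the auxin response element (spelled TGTCTC or spelled TGTCGG). No word of 1 motif contains a word of another, and words of the same motif can overlap.
GH3.17 start site (chr1:9825099-9825168, + strand): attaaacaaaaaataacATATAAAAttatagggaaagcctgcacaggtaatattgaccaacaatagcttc
GH3.2 promoter (chr4:17579380-17579500, + strand): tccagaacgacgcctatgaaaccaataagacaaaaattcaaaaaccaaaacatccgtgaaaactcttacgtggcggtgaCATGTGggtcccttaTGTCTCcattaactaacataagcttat
GH3.3 distal upstream (chr2:9868846-9868966, − strand): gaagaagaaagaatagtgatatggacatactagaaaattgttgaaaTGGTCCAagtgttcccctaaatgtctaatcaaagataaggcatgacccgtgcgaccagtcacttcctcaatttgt
GH3.5 downstream (chr4:13657017-13657137, + strand): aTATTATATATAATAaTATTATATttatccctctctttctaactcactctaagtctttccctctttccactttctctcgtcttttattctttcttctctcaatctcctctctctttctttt
GH3.10 intron (chr4:1500134-1500254, − strand): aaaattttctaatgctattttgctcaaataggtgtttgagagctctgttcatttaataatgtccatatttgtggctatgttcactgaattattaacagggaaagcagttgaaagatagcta
The GH3.2 promoter run held 1 auxin response element and 1 PIF-like word. The GH3.17 run, which ends at the base before the transcription start, held 1 AT-rich word. The GH3.5 downstream run held 3 AT-rich words, 2 of them overlapping, and the GH3.3 run held 2 overlapping TCP-like words. The GH3.10 intron run held none of the 4 motifs, while the 300 bp around its summit held 2 TCP-like words. A match is only a description of the letters.

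SOB3-GFP peaks lay at 9 of the 10 genes. The peak lists held between 20988 and 24850 peaks each, and 18 to 23 peaks of a list fell in GH3 windows. Peaks of the 9 lists that overlapped by at least 1 bp were merged into 28285 nuclear sites, of which 23 touched a GH3 window. Of these 23 sites, 14 (60.9%) had a peak in all 9 lists, against 46.8% of all sites. Only 1 GH3 site was found in a single list, and the other 8 had a peak in 3 to 8 lists. By position, 12 summits lay upstream of a GH3 transcription start, 2 in introns, 1 in a 5′ UTR, 2 in a 3′ UTR and 6 downstream of the gene.

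**Figure D1:**
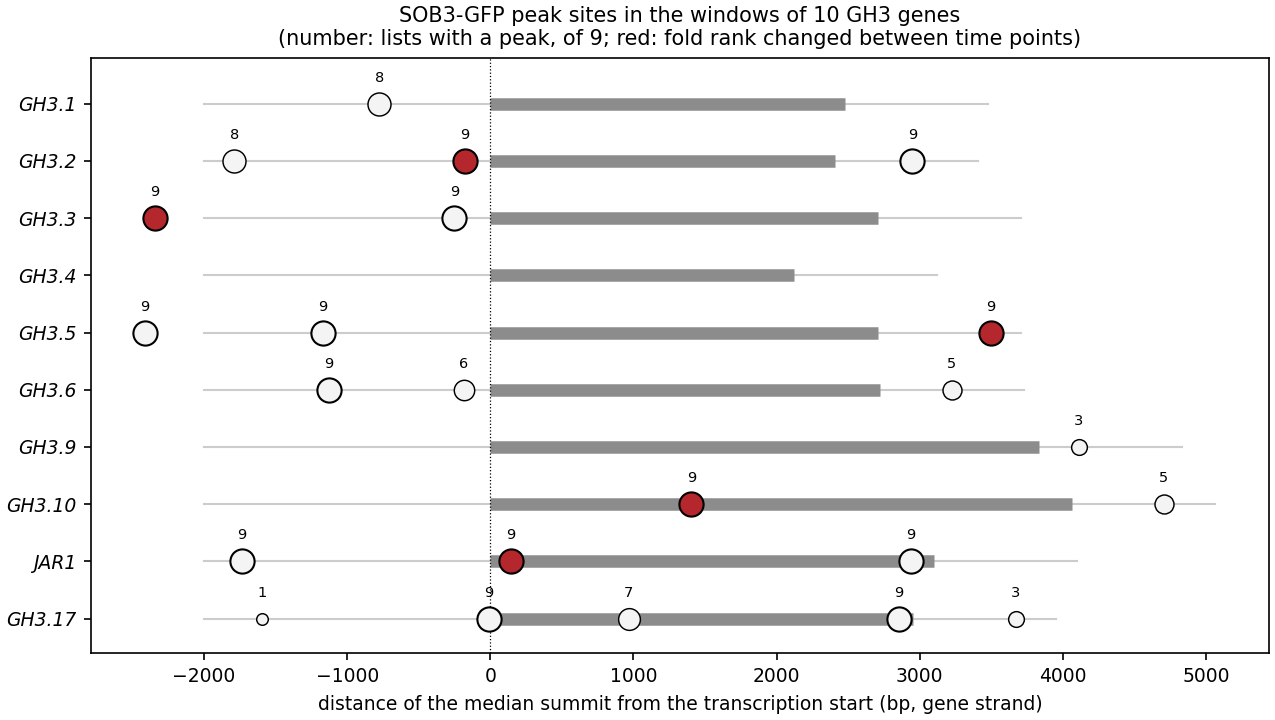
Position of the 23 SOB3-GFP sites at the 10 GH3 genes. The x axis is the distance of the median summit from the transcription start in bp on the gene strand, thick bars are gene bodies, thin lines are the windows, and the number and size of each circle give the lists with a peak, of 9. GH3.17 has 5 sites and GH3.4 has none, and the 5 red sites are those whose fold rank changed between time points.

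By gene, 7 of the 10 had a window peak in all 9 lists: GH3.2, GH3.3, GH3.5, GH3.6, GH3.10, JAR1 and GH3.17. Of all protein-coding genes, 52.4% did. GH3.1 had its only peak in 8 lists, GH3.9 had a weak peak in 3 lists, and GH3.4 had none, as did 20.3% of all genes. A gene can also be called bound where its transcription start is the nearest to a peak in at least 2 of 3 replicates. By that rule 7 GH3 genes were bound at all 3 time points, against 44.3% of all genes. GH3.1 joined by this rule, and GH3.10 left, because the start of the neighbouring gene AT4G03410 was nearer to its peak.

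Peak strength is given as fold enrichment (how far the ChIP pileup at a summit exceeds its local background) and as the percentile of that fold among all peaks of the same list. The best window peak of the 7 GH3 genes with a peak in every list had a median percentile of 81.4, against 71.1 for all 14388 genes with a peak in every list. At GH3.2 this peak lay past the gene end, as it did in most lists at GH3.5, and in most lists at GH3.3 it lay at −2344 bp. With only 1 kb upstream and the gene body the GH3 median was 65.6, and no value for all genes is given for that window. The 10 GH3 genes are also longer (median 2716.5 bp, against 2078 bp for all genes), so their windows are longer. The order of the mean best percentile was GH3.17 (95.3 ± 1.87), GH3.2 (91.9 ± 1.47), GH3.5 (84.1 ± 7.0), GH3.3 (81.4 ± 7.72), JAR1 (75.1 ± 6.64), GH3.6 (61.0 ± 9.37) and GH3.10 (50.2 ± 22.1; SD over 9 lists each). In this order GH3.5 and GH3.3 differed by less than their spread, as did GH3.3 and JAR1. GH3.6 and GH3.10 differed by more than the SD of GH3.6 and by less than that of GH3.10, whose percentile was lower in the ZT24 lists. GH3.1 stood at 51.6 ± 12.4 over its 8 lists. Taken list by list, the median over the 7 genes lay between 71.5 and 92.0 and was lowest in the 3 ZT24 lists.

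**Figure D2:**
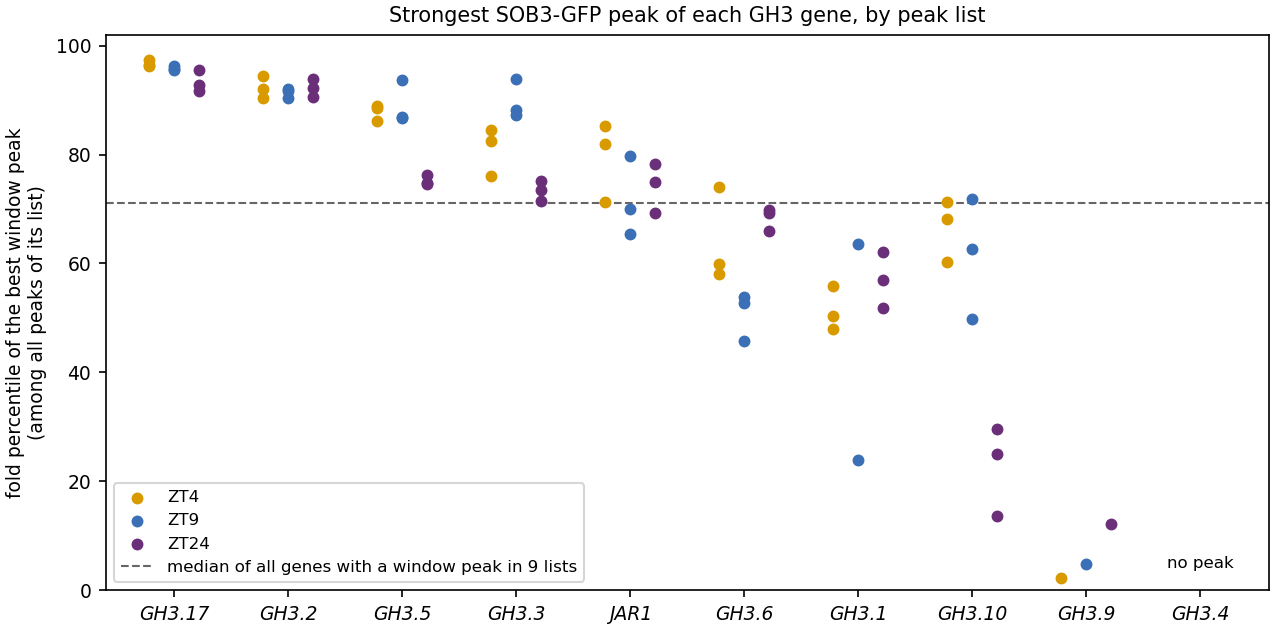
Percentile of the best window peak of each GH3 gene among all peaks of its list (y axis), for the 3 replicates at ZT4, ZT9 and ZT24. The dashed line is the median of all genes with a window peak in 9 lists, 71.1. GH3.17 and GH3.2 stay above 90 in all lists, the GH3.10 points are lower at ZT24, and GH3.4 has no point.

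GH3.17 (AT1G28130; chr1:9825169-9828118, + strand) encodes the enzyme that conjugates auxin mainly with glutamate and is known to limit hypocotyl elongation. It carried 5 sites, counting those found in any list. As many or more were carried by 2.30% of all genes, a share that does not allow for gene length. The strongest lay at the transcription start, with its median summit at −10 bp and a summit in every list between −32 and +30 bp. Its fold enrichment was 7.49, 5.86 and 6.52 at ZT4, 6.29, 5.79 and 5.13 at ZT9, and 5.67, 6.31 and 5.21 in the ZT24 lists. The 3 time points overlapped, and the peak ranked between percentiles 91.6 and 97.4 of its list. The other GH3.17 site in all 9 lists lay in the 3′ UTR, 2855 bp from the start, where the start of AT1G28135 is the nearest. Its fold was 3.92, 3.67 and 3.98 at ZT4, 3.06, 2.94 and 2.60 at ZT9, and 4.01, 3.19 and 3.15 in the ZT24 lists. The ZT9 lists were the lowest and did not overlap the others, but the difference did not pass the limma F test across time points (adjusted p = 0.106). An intron site at +966 bp had a peak in 7 lists with a fold of 1.93 to 2.58. The sites at −1594 bp (1 list) and +3671 bp (3 lists) had a fold of at most 2.19, and the latter is nearest to the start of AT1G28135.

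GH3.1 to GH3.6 belong to the clade of auxin-conjugating enzymes that auxin itself induces. GH3.2 (AT4G37390, also BRU6; chr4:17579618-17582022, + strand) had 3 sites. The strongest lay past the end of the gene, on the side of CYP81F3 (AT4G37400), which encodes a cytochrome P450. Its fold was 5.87, 5.27 and 5.18 at ZT4, 5.27, 4.81 and 4.54 at ZT9, and 5.57, 5.85 and 5.04 in the ZT24 lists. It ranked between percentiles 90.3 and 94.5 in all lists, the narrowest range of the 14 GH3 sites found in every list. The promoter site of GH3.2 at −178 bp had a mean fold of 3.06 ± 0.631 (SD, n = 9). It passed the limma F test across time points on fold rank (adjusted p = 0.0202) and not on pileup rank (adjusted p = 0.353). Another, weaker site at −1788 bp had a peak in 8 lists with a fold of 1.75 to 2.50.

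GH3.3 (AT2G23170; chr2:9863855-9866562, − strand), GH3.5 (AT4G27260, also WES1; chr4:13653579-13656285, + strand) and GH3.6 (AT5G54510, also DFL1; chr5:22130964-22133688, − strand) act together in adventitious rooting, and GH3.5 also accepts salicylic acid. GH3.3 had a distal site at −2344 bp, whose peaks reach into the window, and a proximal one at −251 bp. The proximal site had a fold of 2.85, 2.52 and 3.46 at ZT4, 3.80, 3.28 and 2.90 at ZT9, and 3.71, 3.73 and 3.55 in the ZT24 lists. All 3 ZT24 values lay above all 3 at ZT4, while ZT9 overlapped both, and the test was not passed (adjusted p = 0.120; 0.0447 without ZT4 replicate 3).

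GH3.5 had its main upstream site at −1171 bp, with a fold of 3.89, 3.42 and 3.78 at ZT4, 2.74, 3.19 and 2.77 at ZT9, and 3.79, 3.89 and 3.48 in the ZT24 lists. The ZT9 lists were again below the others without overlap, short of the threshold (adjusted p = 0.178). The site at −2415 bp had a peak in all 9 lists (fold 2.18 to 3.97), but in only 1 of them did the peak reach into the window. The remaining GH3.5 site lay 792 bp past the gene end and had the highest fold of the gene, 4.34 ± 0.600 (SD, n = 9). GH3.6 had 1 site in all lists, at −1126 bp, with a fold of 3.93, 2.83 and 3.07 at ZT4, 2.94, 2.62 and 2.60 at ZT9, and 3.35, 3.51 and 3.47 in the ZT24 lists. All ZT24 values were above all ZT9 values, while ZT4 overlapped both (adjusted p = 0.194). Its proximal site at −185 bp had a peak in 2 of 3 replicates at each time point, with a fold of 2.04 to 2.31, and a site 499 bp past the gene had a peak in 5 lists (fold 1.61 to 2.08).

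GH3.1 (AT2G14960; chr2:6451319-6453797, − strand) had 1 site, at −776 bp. Its fold was 2.91, 2.55 and 3.00 at ZT4, 3.26 and 2.21 in replicates 1 and 2 at ZT9, and 3.01, 3.21 and 2.87 in the ZT24 lists. ZT9 replicate 3 had no peak there, so the site was not tested. GH3.4 (AT1G59500; chr1:21854493-21856614, − strand) had no peak in any list. All of the 86-base words in the windows of the 10 genes occurred once in the reference as exact matches. Matches with mismatches were not counted, so whether reads at GH3.4 were lost in unique mapping was not tested. GH3.9 (AT2G47750; chr2:19560127-19563960, − strand), which acts in root growth, had only a peak 279 bp past its end, near a tRNA gene (AT2G47740), with a fold of 1.69 in ZT4 replicate 2, 1.82 in ZT9 replicate 2 and 2.09 in ZT24 replicate 3. These 3 peaks ranked between percentiles 2.21 and 12.1, at the weak end of their lists.

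JAR1 (AT2G46370; chr2:19033586-19036683, + strand) had 3 sites, and each had a peak in every list. The strongest lay at −1734 bp, with a fold of 4.52, 3.21 and 4.58 at ZT4, 3.53, 3.86 and 2.65 at ZT9, and 4.02, 3.80 and 3.44 in the ZT24 lists. The time points overlapped (adjusted p = 0.490). Another lay in the 5′ UTR at +144 bp. It passed the limma F test across time points on fold rank (adjusted p = 0.0329) and not on pileup rank (adjusted p = 0.410). The last, in the 3′ UTR at +2938 bp, is nearest to the start of AT2G46375 and had a fold of 3.48, 2.55 and 3.28 at ZT4, 3.23, 2.85 and 2.92 at ZT9, and 3.10, 2.32 and 2.17 in the ZT24 lists. ZT24 replicate 1 overlapped the other time points and the other 2 ZT24 lists were the lowest (adjusted p = 0.0852; 0.0318 without ZT24 replicate 1). GH3.10 (AT4G03400, also DFL2; chr4:1497536-1501599, − strand), which was named for its effect on hypocotyl length in light, had its main site in an intron at +1405 bp. A weak one 642 bp past its end had a peak in 5 lists (fold 1.69 to 2.27).

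**Figure D3:**
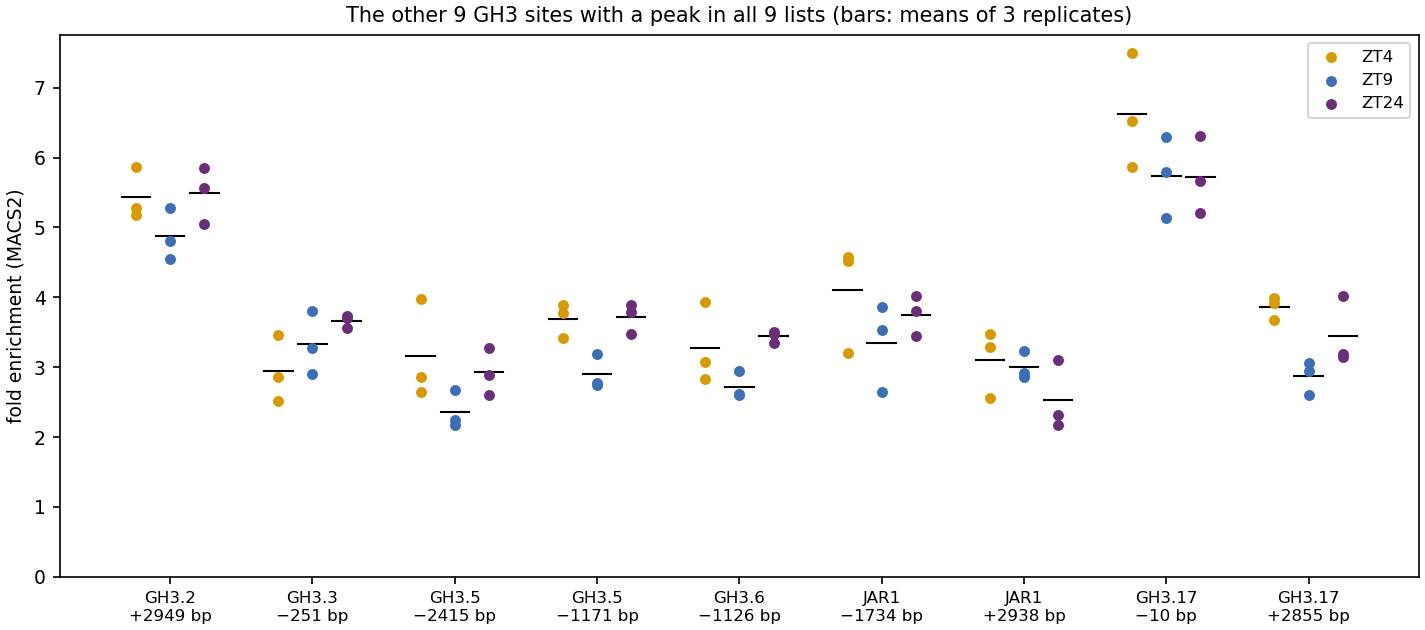
Fold enrichment (y axis) of the 9 GH3 sites that had a peak in all lists and whose fold rank did not pass the test between time points. Points are the 3 replicates at ZT4, ZT9 and ZT24, and bars are their means. The GH3.17 start site (5.13 to 7.49) and the GH3.2 downstream site (4.54 to 5.87) are the highest.

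Whether SOB3-GFP enrichment at these sites changed through the day was asked next. Only the 13251 sites with a peak in all 9 lists were used. Within each list, the fold of a site was ranked among those sites and expressed as a normal score. These scores are therefore not on the scale of the percentiles, which are taken among all peaks of a list. Time was tested in limma by a moderated F test (Benjamini-Hochberg adjusted over 13251 sites, threshold 0.05). Of the 14 GH3 sites, 5 passed, against 14.6% of all sites. There was 1 input sample per time point, and which input served which list is not given. Lists of a time point that shared an input also shared its background. The p-values then do not measure the spread between input libraries. This limit holds for the share over all sites and for every site below, in GH3 windows or not. Between pairs of time points, 2 GH3 sites differed between ZT9 and ZT4 (all sites: 8.32%), 1 between ZT24 and ZT4 (all sites: 5.00%) and 4 between ZT24 and ZT9 (all sites: 8.99%). All 4 of the last were lower at ZT24, as were 577 of the 1191 such sites overall (4.35% of all sites were lower and 4.63% higher). A lower fold rank is not by itself less binding. At the distal GH3.3 and downstream GH3.5 sites the pileup, divided by the genome-wide background of the list, was higher at ZT24 than at ZT9. Where binding is lower, fewer cells with binding and less binding per cell cannot be told apart in whole seedlings. The call depends on the measure that is ranked. Ranked by the −log10 p of each peak, 1 GH3 site passed (all sites: 1.85%), and ranked by the ChIP pileup alone, without the background, 0 passed (all sites: 0.211%), although 3 had an unadjusted p below 0.05 in limma.

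The intron site of GH3.10 had the smallest p of the family. It had a fold of 3.62, 2.84 and 3.60 at ZT4, 3.23, 2.71 and 3.13 at ZT9, and 2.24, 2.35 and 2.12 in the ZT24 lists. All 3 ZT24 lists were below all 6 others, and ZT4 and ZT9 overlapped. As percentiles, ZT4 lists averaged 66.6 ± 5.67, ZT9 lists 61.4 ± 11.1 and ZT24 lists 22.7 ± 8.18 (SD over 3 replicates). In normal scores ZT24 minus ZT4 was −1.46 ± 0.245 (SE, limma adjusted p = 0.0144) and ZT24 minus ZT9 was −1.35 ± 0.245 (SE, adjusted p = 0.0124). The F test gave an adjusted p of 0.00889, and it was passed without any 1 of the 9 lists (0.0131 to 0.0334) and when ranked by −log10 p (0.0243). With only peaks of a −log10 q of at least 5 the site could not be tested, because its peak in ZT24 replicate 3 had 4.05. The pileup, divided by the genome-wide background of its list, was 4.88, 3.61 and 4.79 at ZT4, 4.52, 3.94 and 3.63 at ZT9, and 3.38, 3.44 and 3.30 in the ZT24 lists, again lowest in the 3 ZT24 lists. The genome-wide background, the only trace of depth in the lists, was 12.1 to 15.8 fragments per base over the 9 lists. The local background at the site reached 1.27 ± 0.0361 times the genome-wide one in ZT4 lists, 1.29 ± 0.156 times in ZT9 lists and 1.47 ± 0.0460 times in ZT24 lists (SD over 3 replicates). Ranked by pileup the adjusted p was 0.0749 (unadjusted 0.000406 in limma).

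The GH3.2 promoter site, whose sequence holds an auxin response element, had a higher fold rank at ZT9. Its fold was 3.47, 2.25 and 2.54 at ZT4, 4.16, 3.66 and 3.38 at ZT9, and 2.61, 2.65 and 2.85 in the ZT24 lists. All ZT9 values were above all ZT24 values, and ZT4 replicate 1 fell within the ZT9 range. The percentile sets a fold against the other peaks of its list, and the local background stays in it. By percentile, the ZT9 lists (81.0, 76.5 and 77.5) were above those at ZT4 (65.1, 31.2 and 37.2) and at ZT24 (42.3, 43.8 and 51.4) without overlap. The normal score was higher at ZT9 than at ZT4 by 1.20 ± 0.265 (SE, limma adjusted p = 0.0214), and ZT24 minus ZT9 was −1.21 ± 0.265 (SE, adjusted p = 0.0230). The F test (adjusted p = 0.0202) was not passed without ZT9 replicate 1 (0.0563) or ZT9 replicate 3 (0.0559), nor when ranked by −log10 p (0.0847). Each of these contrasts was kept in 4 of the 9 fits that left out 1 list, with adjusted p-values of 0.0189 to 0.0750 for ZT9 minus ZT4 and 0.0179 to 0.0730 for ZT24 minus ZT9 in limma. The local background was 1.36 ± 0.0516 times the genome background in ZT4 lists, 1.28 ± 0.0423 times in ZT9 lists and 1.49 ± 0.223 times in ZT24 lists. The pileup over the genome background was 5.08, 3.04 and 3.57 at ZT4, 5.57, 4.70 and 4.62 at ZT9, and 3.65, 4.74 and 4.05 in the ZT24 lists, so that ZT9 overlapped both of the others (adjusted p = 0.353 when ranked by pileup).

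At the 5′ UTR site of JAR1, fold enrichment was lower at ZT9 than at ZT4. It was 3.34, 2.72 and 3.50 at ZT4, 2.34, 2.38 and 1.81 at ZT9, and 2.98, 2.66 and 2.27 in the ZT24 lists. The ZT9 and ZT4 lists did not overlap, and ZT24 overlapped both. The normal score of ZT9 minus ZT4 was −1.22 ± 0.271 (SE, limma adjusted p = 0.0222), and the F test gave an adjusted p of 0.0329, which was kept in only 3 of the 9 fits that left out 1 list. It was lost without ZT4 replicate 1 (0.0623), 2 (0.0589) or 3 (0.0874), ZT9 replicate 1 (0.0676) or 3 (0.0811), or ZT24 replicate 2 (0.0575). The contrast itself was kept in 4 of these 9 fits (0.0252 to 0.0754). The pileup over the genome background was 5.04, 4.56 and 3.96 at ZT9, against 5.55, 3.93 and 4.96 at ZT4, which overlap. The local background over the genome background was 2.05 ± 0.147 at ZT9, against 1.46 ± 0.138 at ZT4 (SD, n = 3 each), and was thus higher where the fold was lower. Ranked by pileup, ZT9 minus ZT4 was −0.11 (adjusted p = 0.873).

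The distal site of GH3.3 and the downstream site of GH3.5 both had a lower fold rank at ZT24 than at ZT9, and at both the local background moved the other way. At GH3.3 the fold was 4.57, 3.44 and 4.50 at ZT4, 4.82, 4.46 and 4.81 at ZT9, and 3.67, 3.82 and 3.13 in the ZT24 lists. The ZT24 and ZT9 lists did not overlap, and ZT4 overlapped both. ZT24 minus ZT9 was −0.95 ± 0.224 in normal scores (SE, limma adjusted p = 0.0288, and F test 0.0394). The pileup over the genome background was nonetheless 8.02, 7.56 and 6.93 at ZT24, against 6.77, 6.01 and 6.46 at ZT9, all higher at ZT24. The ZT4 lists had 7.62, 5.89 and 6.58, which overlap both. The local background was 2.08 ± 0.126 times the genome background at ZT24, against 1.31 ± 0.0304 times at ZT9 (SD, n = 3 each). Ranked by pileup, the estimate for ZT24 minus ZT9 turned to 0.21 (adjusted p = 0.725).

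At the GH3.5 downstream site the fold was 5.26, 4.39 and 4.65 at ZT4, 4.66, 4.43 and 4.79 at ZT9, and 3.45, 3.69 and 3.70 in the ZT24 lists. All ZT24 values were below all others. ZT24 minus ZT9 was −0.84 ± 0.222 in normal scores (SE, limma adjusted p = 0.0399, and F test 0.0454). The pileup over the genome background was 6.83, 6.81 and 6.85 at ZT24, against 6.25, 6.22 and 6.73 at ZT9, again higher at ZT24. The ZT4 lists had 7.96, 6.96 and 7.39, all above ZT24, as in fold. The local background was 1.84 ± 0.0800 times the genome background at ZT24, against 1.33 ± 0.0413 times at ZT9 and 1.51 ± 0.0422 times at ZT4. Ranked by pileup, ZT24 minus ZT9 was 0.0024, on the other side of 0 (adjusted p = 0.999). For neither of these sites was the F test passed in any fit that left out 1 list (0.0549 to 0.101 at GH3.3, 0.0589 to 0.139 at GH3.5). The contrast of ZT24 with ZT9 was kept in 3 of these 9 fits at GH3.3 and in 0 at GH3.5 (limma adjusted p of 0.0361 to 0.0835 and 0.0529 to 0.119). With 1 input sample per time point, a background that differs between time points and one that differs between input libraries cannot be told apart.

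**Figure D4:**
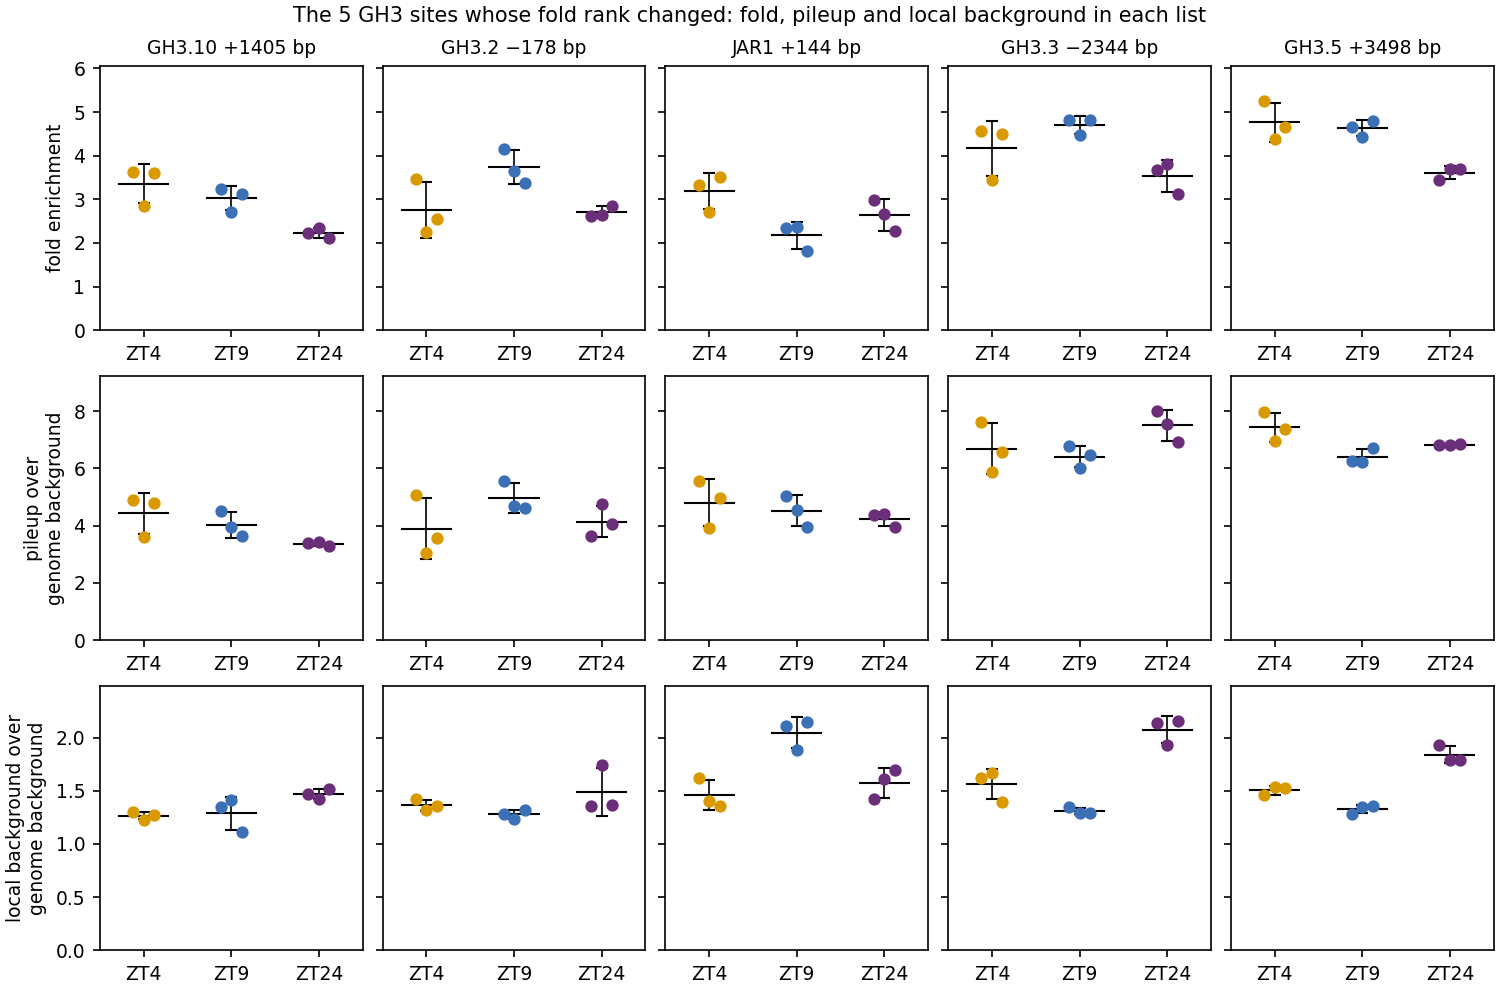
Fold enrichment (top), pileup over the genome background of the list (middle) and local background over the genome background (bottom) at the 5 GH3 sites whose fold rank changed. Points are the 3 replicates at ZT4, ZT9 and ZT24, and bars are means with SD. At GH3.10 the pileup is lowest at ZT24 (3.30 to 3.44), while at GH3.3 and GH3.5 the background is highest at ZT24 (2.08 and 1.84 times the genome background) and at JAR1 at ZT9 (2.05 times).

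In 300 bp windows around the median summits, 13 of the 23 GH3 sites (56.5%) held a PIF-like word, against 33.3% of all 28285 sites. An auxin response element was in 8 (34.8%), against 21.7% of all sites. AT-rich words were in 12 (52.2%), against 49.8%, and TCP-like words in 7 (30.4%), against 34.3%. The median share of A and T was 67.7% at the GH3 sites and 67.7% at all sites. In the 500 bp upstream of the transcription start, 6 of the 10 genes had a PIF-like word (36.1% of all genes) and 4 had an auxin response element (27.4% of all genes): GH3.2, GH3.3, GH3.4 and GH3.5. GH3.4 thus had the element and no peak. GH3.3 held 2 PIF-like words and 1 auxin response element under its proximal summit, and GH3.17 held 3 auxin response elements under its 3′ UTR site.

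Other genes of the same pathways were read in the same way. Of the 9 remaining GH3 genes, most of them in a clade that acts on other acids such as benzoates, 5 had a window peak in all 9 lists and 4 had none (GH3.8, GH3.16, GH3.18 and GH3.19). The best of them was GH3.12 (PBS3), the enzyme of salicylic acid synthesis, at percentile 91.8. Of 7 genes for hydrolases that release auxin from conjugates, 5 had a peak in all lists, with ILL6 at percentile 98.8. Of 5 genes for other routes of auxin inactivation, 4 did, and UGT84B1 had none, and of 8 genes that inactivate jasmonates, 6 did, with CYP94B3 at percentile 99. Sites that passed the F test numbered 1 of 7, 2 of 10, 1 of 6 and 5 of 12 in these lists in the same order, beside the 14.6% of all sites. The single site of the first list is shared by GH3.13 and GH3.14.

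Among those sites, the one with the largest difference between ZT9 and ZT4 on the auxin side was at DAO1, the dioxygenase that oxidises auxin, centred at −64 bp. Its percentile averaged 93.7 in ZT4 lists, 49.0 in ZT9 lists and 78.0 in ZT24 lists (limma adjusted p = 0.00465). ILR1 and ILL6, both hydrolases, were also lower at ZT9 than at ZT4 in fold rank (adjusted p of the F test 0.0241 and 0.0371). JOX2, a jasmonate oxidase, had a downstream site with a percentile averaging 34.8 in ZT4 lists, 86.3 in ZT9 lists and 25.2 in ZT24 lists (adjusted p = 0.00397). JOX4, of the same family, had a site centred inside the gene at +2298 bp, which averaged percentile 62.1 in ZT4 lists, 74.4 in ZT9 lists and 30.3 in ZT24 lists (adjusted p = 0.0122). ST2A, a sulfotransferase of a jasmonate, had an upstream site and one near its start, both with their lowest average at ZT9 (46.6 and 40.7), and the site at the start of JOX2 had its lowest at ZT4 (39.5). None of these sites passed when ranked by pileup (limma adjusted p of 0.0677 at the downstream site of JOX2 and 0.226 or above at the others).

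The sites outside GH3 windows whose normal scores over the 9 lists were most like those of the GH3.10 intron site were in the coding sequence at +98 bp of AT4G22190 (Pearson r = 0.97), in an intron of GH9B18 (r = 0.96) and downstream of KCS1 (r = 0.95). These correlations are over 9 lists that include the same replicates, and the sites were picked as the highest of 13251, so they are a description only. The mean percentiles of the AT4G22190 site were 82.5 at ZT4, 83.0 at ZT9 and 62.1 at ZT24.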

How the data were processed

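ChIP-seq of SOB3-GFP seedlings was analysed from 9 deposited peak lists. The authors mapped single reads uniquely to TAIR10 with Bowtie and called peaks per replicate with MACS2 against input; replicates were not pooled, and which input served which list is not given in the sources used here. The deposited lists hold, per peak, a fold enrichment (ratio), a −log10 p-value and a −log10 q-value, with a lowest −log10 q of 1.30 to 1.33 per list, and a summit offset in bp. The summit offsets and the peak intervals were used as deposited. Only bound regions above that threshold are listed, so an unlisted site is not a measured 0.

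The pileup and local background at each summit were solved from the fold, (pileup + 1) / (background + 1), and the Poisson p; a whole-number pileup matched the p within 0.001 for 100% of nuclear peaks. The lowest background of a list is its genome-wide mean. Positions, strands and places come from the RefSeq annotation of TAIR10.1, whose nuclear chromosomes are those of TAIR10, and sequences from the same assembly; that of the downstream GH3.2 site is not reported here. Windows ran from 2000 bp upstream to 1000 bp past the gene. Peaks were merged where they overlapped by 1 bp, and the peak with the highest fold stood for a list. Ranks as normal scores were tested with limma 3.58.1 in R 4.3.3 (moderated F, contrasts of the same fit; Benjamini-Hochberg, 0.05), using Python 3.11.15 for the rest. On simulated ranks of 13251 sites, 100 were shifted by 2 units and 100 by 1. The F test found 99% of the former and 17% of the latter. Replicates were those of the labels, and the methods call them biological.

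The 10 genes and the other lists were chosen with earlier results of these data known. All member sites are named; of the other lists, genes with no window peak or a called site. The most alike sites were the 3 with the highest Pearson r to the member site with the smallest F p. Alternatives were a −log10 q of at least 5 or 10, other ranks, other windows and site rules, a replicate block and leaving out each list.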

Additional observations from a re-analysis of the deposited data

How the results depend on the processing

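The counts of genes with a window peak in every list (7) and of genes bound by the nearest-start rule (7) moved by less than 1.5 times under the alternatives tried. The count of 23 GH3 sites fell to 15 at a −log10 q of at least 10 and to 14 with a window of 1 kb upstream and the gene body. The median best percentile of 81.4 became 65.8 at a −log10 q of at least 10 and 65.6 with the smaller window. The same values for all genes are not given, so neither can be set beside the 71.1 of the main setting.

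The 5 GH3 sites with a changed fold rank became 1 when ranked by −log10 p, 0 when ranked by pileup, 3 at a −log10 q of at least 5 and 1 to 4 when each list was left out. Sites differing between ZT9 and ZT4 (2) became 0 by −log10 p, 0 by pileup and 0 to 2 on leaving out a list, those between ZT24 and ZT4 (1) became 0 by pileup and 0 at a −log10 q of at least 5, and those between ZT24 and ZT9 (4) became 1 by −log10 p, 0 by pileup and 1 to 3 on leaving out a list. Over all sites, 1936 passed the F test, 245 ranked by −log10 p and 28 ranked by pileup. In the pileup ranks the background is left out by construction; there ZT24 minus ZT9 reversed to 0.21 at the distal GH3.3 site and 0.0024 at the downstream GH3.5 site. Same-numbered replicates of different time points showed no shared deviation, with correlations between −0.05 and 0.06, so the numbers were not taken as pairs. With the replicate block, 2 GH3 sites passed (GH3.2 promoter, adjusted p = 0.0356; GH3.10 intron, 0.0184) and 1398 of all sites. The adjusted p of the F test was then 0.0667 at GH3.3, 0.0629 at GH3.5 and 0.0528 at JAR1, and that of ZT24 minus ZT9 at GH3.5 was 0.0562.

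TCP-like words were in 30.4% of GH3 sites, and in 46.7% at a −log10 q of at least 10, 17.4% in 100 bp windows (all sites: 20.2%) and 26.1% to 41.7% on leaving out a list. PIF-like words were in 30.4% in 100 bp windows (all sites: 15.2%). AT-rich words were in 40% at a −log10 q of at least 10 and 34.8% in 100 bp windows (all sites: 26.0%), and auxin response elements in 17.4% in 100 bp windows (all sites: 8.08%) and 30.4% to 43.5% on leaving out a list. With 3 lists per time point there were 6 residual degrees of freedom. The simulated ranks held few shifted sites, while 1936 sites passed in the data. The 17% found in the simulation for shifts of 1 unit therefore does not carry over. Differences of −0.95 and −0.84 normal-score units were called, and how many shifts of that size were missed was not tested. Depth per list is known only through the genome-wide background.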
